A study of Mus musculus with 4 samples.

Results

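Cxcl16 and Cxcr6 encode a chemokine and its receptor, and their expression was followed across the cells of the mouse brain and of a transplanted glioma. The genes were taken by symbol from the gene lists of the 4 single-cell RNA-seq libraries, where each symbol named 1 row, so the pair made up 2 of 27998 genes. CXCL16 is unusual among chemokines in being made as a transmembrane protein, with its chemokine domain held out from the cell on a mucin-like stalk. In that form it holds cells that carry CXCR6 and acts as a scavenger receptor for oxidised lipoprotein and phosphatidylserine, and the proteases ADAM10 and ADAM17 cut it free as a soluble attractant. CXCR6 is a G protein-coupled receptor known from activated and tissue-resident T cells, natural killer T cells and innate lymphoid cells, and in the mouse liver it marks resident natural killer (NK) cells.

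Glioma-005 cells, a mouse glioma line, were injected stereotactically into the hippocampus of C57BL/6J mice aged 8 to 12 weeks. The tumor-bearing mice formed 3 groups, given from day 7 either the hamster antibody against the checkpoint receptor CTLA-4 together with an antibody that depletes CD4 cells (the depletion library), the same CTLA-4 antibody without depletion (the anti-CTLA-4 library), or a rat isotype IgG (the IgG library). Immune cells were collected on day 35 from 3 tumors pooled per library, and the last library came from healthy brain without tumor. Microglia, other CD11b+ myeloid cells, CD3+ T cells and the remaining CD45hi cells were sorted apart and mixed in equal ratios, so that the share of a cell class in a library was set by the sort and is not compared here.

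Of 8694 barcodes, 8291 cells were kept after filtering, 3706 in the depletion library, 1763 in the anti-CTLA-4 library, 1434 in the IgG library and 1388 in healthy brain, at medians of 4359 to 5853 unique molecular identifiers (UMIs, 1 per captured transcript) per cell. Among the kept cells 6 barcodes occurred in more than 1 library. The cells were clustered with Cxcl16 and Cxcr6 left out of the genes used, and most of the 23 clusters were named "-like" from marker genes of each cell type, while the others stayed unnamed. Cd4 itself, a check of the depletion, stood at 7.397 UMIs per 10⁶ UMIs (CPM) in T cell-like cells of the depletion library, against 134.2 CPM in the anti-CTLA-4 library and 138.6 CPM in the IgG library. CPM values are the summed UMIs of a gene over all cells of a class in a library, scaled to a common total in that way. Each condition was 1 library without a replicate, so condition differences are given as CPM ratios with 95% intervals and no test. All such intervals, and those of shares of cells, cover counting error only, and in sums over pooled tumors the variation between mice cannot be seen.

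In the GRCm38 (mm10) annotation Cxcl16 lies on the minus strand at chr11:70453983-70459984. Its neighbour on the opposite strand, Zmynd15, overlaps it by 552 bases that are exonic in both genes. Zmynd15 itself held 7.92 to 19.37 CPM in macrophage-like cells and 2.194 to 9.706 CPM in microglia-like cells, and whether the counting used strand is not given in the sources used here. Cxcr6 lies on the plus strand at chr9:123806475-123811760, wholly inside Fyco1, which runs on the minus strand and shares no exonic base with it. Fyco1 held 20.88 to 26.03 CPM in T cell-like cells of the 4 libraries. The 250 bases before the RefSeq start of Cxcr6 (build GRCm38.p6, chr9:123806227-123806476, plus strand) are shown because Cxcr6 was the lymphoid member of the pair, with motifs of lymphoid and other transcription factors searched on both strands. The capitals mark the only matches, an E-box (CANNTG, read here as CATGTG) that starts 88 bases before the gene's start and a RUNX motif (TGTGGT, here on the minus strand as ACCACA) that starts 10 bases before it.
Cxcr6 promoter: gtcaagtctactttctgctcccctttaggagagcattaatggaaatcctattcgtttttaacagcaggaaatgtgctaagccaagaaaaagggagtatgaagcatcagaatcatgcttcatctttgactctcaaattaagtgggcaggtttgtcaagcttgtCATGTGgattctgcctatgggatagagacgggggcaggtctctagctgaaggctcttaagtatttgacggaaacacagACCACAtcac
The window had 43.6% G and C, against a median of 52.4% over 32851 mouse promoter windows of the same length. An E-box was present in 66.2% of those windows and the RUNX letters in 14%, so neither is rare. The T-box letters GGTGTGA, the ETS letters GGAAGT and the STAT letters TTCNNNGAA, held by 3.33%, 19.7% and 7.02% of the windows, were not among the letters of this window. A match of letters is not a binding site.

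Cxcl16 was a transcript of macrophage-like, dendritic cell-like and tumor microglia-like cells. In macrophage-like cells it stood at 339.5 CPM (95% interval 325.2 to 354.1; 753 cells) in the depletion library, 612.4 CPM (584.5 to 641.2; 259 cells) in the anti-CTLA-4 library and 532.2 CPM (502.9 to 562.7; 281 cells) in the IgG library. The 3 intervals did not overlap, and the anti-CTLA-4 library was highest. The healthy brain held 6 macrophage-like cells and is not read for this class. In microglia-like cells Cxcl16 stood at 256.2 CPM (239.4 to 273.8; 526 cells) in the depletion library, 254.0 CPM (227.0 to 283.3; 211 cells) in the anti-CTLA-4 library, 290.8 CPM (267.2 to 315.9; 273 cells) in the IgG library and 63.14 CPM (55.68 to 71.31; 792 cells) in healthy brain. The 3 tumor intervals overlapped each other and all lay above healthy brain. Dendritic cell-like cells had 336.5 CPM (307.4 to 367.6; 164 cells) in the depletion library, 458.1 CPM (404.2 to 517.2; 48 cells) in the anti-CTLA-4 library and 294.3 CPM (250.3 to 343.8; 56 cells) in the IgG library. In these cells the 12 conventional dendritic cell markers summed to 1235, 2298 and 2525 CPM in that order. The 12 monocyte-derived macrophage markers summed to 4059, 6110 and 5460 CPM there, and to 14500, 19580 and 18120 CPM in macrophage-like cells. The part of monocyte-derived cells in the dendritic cell-like values was not tested.

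**Figure D1:**
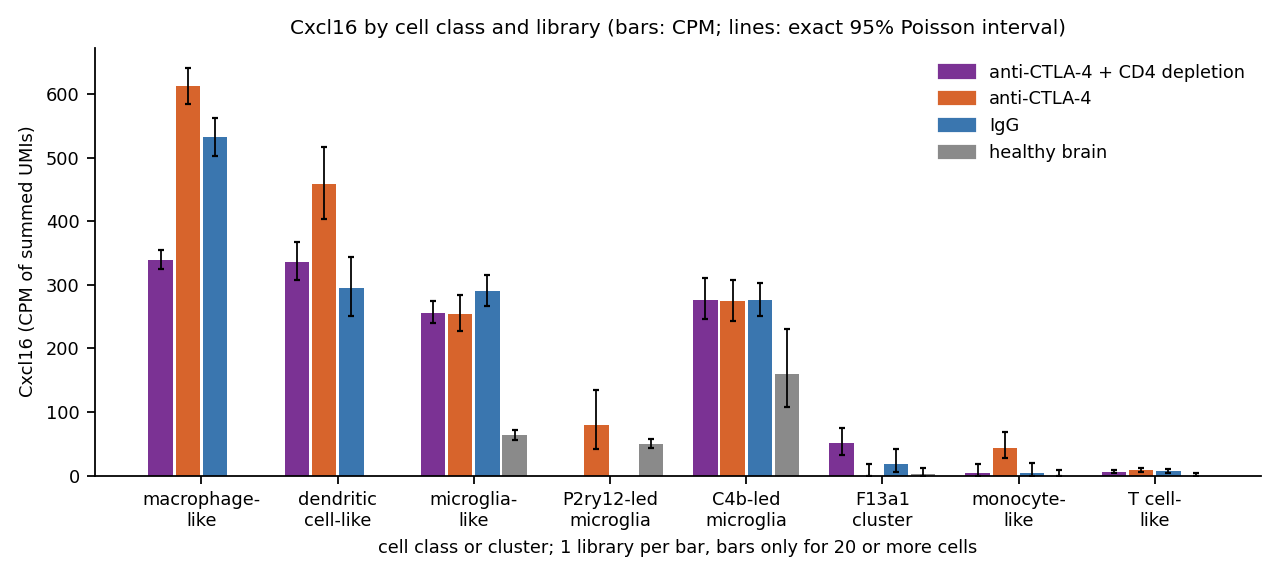
Cxcl16 in myeloid classes, 2 microglia-like clusters and T cell-like cells of each library, as CPM (bars) with the exact Poisson 95% interval (black lines), only for 20 or more cells. Macrophage-like, dendritic cell-like and tumor microglia-like cells lie between 254.0 and 612.4 CPM, healthy microglia-like cells at 63.14 CPM and T cell-like cells at no more than 8.351 CPM.

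By share of cells, a Cxcl16 UMI was seen in 68.53% of macrophage-like cells of the depletion library, 81.85% in the anti-CTLA-4 library and 74.73% in the IgG library, at median depths of 7640, 9922 and 8529 UMIs. When each cell was thinned to 1000 UMIs these shares became 26.14%, 36.19% and 35.16%, with the depletion library lowest on both scales. T cell-like cells, which should hold little of it, showed a Cxcl16 UMI in 2.673% to 3.148% of cells in the 3 tumor libraries at median depths of 3949 to 5468.5 UMIs. The part of free RNA in this share was not tested. Cells with 5 or more Cxcl16 UMIs made up 23.11% of macrophage-like cells in the depletion library, 50.97% in the anti-CTLA-4 library and 34.52% in the IgG library. The richest macrophage-like cell held 43 Cxcl16 UMIs, in the anti-CTLA-4 library. In microglia-like cells the share with 5 or more was 9.696%, 9.005% and 14.65% in the depletion, anti-CTLA-4 and IgG libraries, against 0.7576% in healthy brain.

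The other myeloid classes carried little. The 10 monocyte markers summed to 7653, 9098 and 7878 CPM in macrophage-like cells of the depletion, anti-CTLA-4 and IgG libraries. Ly6c2 among them stood at 869.1, 1693 and 1433 CPM, so monocytes within the macrophage-like class are not told apart here. Monocyte-like cells marked by Ace and Ear2 had 3.314 CPM in the depletion library, 43.92 CPM in the anti-CTLA-4 library, 3.424 CPM in the IgG library and no UMI in the 80 healthy cells. The 20 Cxcl16 UMIs behind the anti-CTLA-4 value came from 3 of 64 cells. Neutrophil-like cells had 4.561 CPM in the depletion library, 8.393 CPM in the anti-CTLA-4 library and no UMI in the IgG library or healthy brain. A cluster led by F13a1, a clotting factor gene of monocytes and macrophages, was left unnamed and had 50.71 CPM in the depletion library, where 3 of its 63 cells held 16 of the 24 UMIs.

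Macrophage-like cells gave 59.94% of all Cxcl16 UMIs in the depletion library, 73.37% in the anti-CTLA-4 library and 62.27% in the IgG library, while making up 20.32%, 14.69% and 19.6% of the cells. Microglia-like cells gave 24.36%, 13.03% and 28.26% of the Cxcl16 UMIs in these libraries and 89.62% in healthy brain, where they were 57.06% of the cells. Such shares of UMIs depend on the mix of cells set by the sort. They describe each library, not the tissue, and are not compared between libraries. Summed per class and library and compared with edgeR's quasi-likelihood test with the library as a block, Cxcl16 was higher in macrophage-like than in microglia-like cells by 1.10 on the log2 scale (SE 0.20, interval 0.66 to 1.54, adjusted p 0.0009333, 3 tumor libraries). It was higher in 3 of 3 libraries. Of 9619 genes tested, 26.3% were called higher and 26.2% lower in macrophage-like cells, so a call was common. Dendritic cell-like cells did not pass against macrophage-like cells, at -0.21 on the log2 scale (SE 0.14, interval -0.50 to 0.08, adjusted p 0.3017), in a comparison that called 11.9% of 8261 genes higher and 11.9% lower. Without the depletion library this difference was -0.47 with an adjusted p of 0.004029. Without the IgG library it was 0.0029 with an adjusted p of 0.9925. The error in these tests is the spread between differently treated libraries.

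Genes that act on the CXCL16 protein were read in the same comparisons, as descriptions, since genes other than the pair defined the classes. Of 3 genes for its release, Rhbdf2, the iRhom that brings ADAM17 to the surface, was higher in macrophage-like than in microglia-like cells (log2 difference 1.19, SE 0.31, adjusted p 0.007811), while Adam10 (-0.05, SE 0.15) and Adam17 (-0.10, SE 0.17) were not called. All 3 were called lower in dendritic cell-like than in macrophage-like cells, with differences of -0.74 for Rhbdf2, -0.73 for Adam17 and -0.63 for Adam10. Of 9 genes of interferon-γ, TNF and NF-κB signalling, the known inducers of CXCL16, 6 were called higher in macrophage-like than in microglia-like cells, among them Irf1 (1.41) and Tnfrsf1b (1.40), and Tnf was called lower (-1.70). Of 16 myeloid chemokine genes, Cxcl16 among them, 9 were called higher in macrophage-like cells and 6 lower. Ccl9 (2.88), Ccl6 (2.49) and Ccl5 (1.55) were on the macrophage side, and Cxcl13 (-5.67), Ccl12 (-4.29) and Ccl3 (-3.01) on the microglia side. Of the 10 scavenger receptor genes, 5 were called higher in macrophage-like cells, Cxcl16 itself and Msr1 (3.70) among them. The difference of Msr1 was the largest of the 5. The other calls were 4 lower genes, Colec12 (-4.16) and Cd36 (-2.73) among them.

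The classes were not uniform. Healthy microglia-like cells lay mostly in cluster 20, led by the homeostatic genes P2ry12 and Fcrls (707 of 792 cells, 49.98 CPM, interval 43.14 to 57.59). The few tumor cells of this cluster, 57 in all, had 60.76 CPM (35.39 to 97.28), which overlapped it. Most tumor microglia-like cells lay in 3 other clusters. Cluster 1, led by C4b and Ccl12, had 276.8 CPM (179 cells) in the depletion library, 274.0 CPM (170 cells) in the anti-CTLA-4 library, 275.8 CPM (238 cells) in the IgG library and 160.5 CPM (107.5 to 230.5) in its 71 healthy cells, which were shallow at a median of 1677 UMIs. Cluster 6, led by Cd63 and Spp1, had 253.7 CPM (250 cells) in the depletion library, 628.5 CPM (20 cells) in the IgG library and 390.6 CPM (277.8 to 534.0; 14 cells) in healthy brain. Cluster 9, led by Cxcl13 and Birc5, had 273.0 CPM over its 89 cells. The tumor cells of the homeostatic cluster thus stood near its healthy cells. The healthy cells of cluster 1 lay between those of cluster 20 and the tumor cells of cluster 1, on 29 Cxcl16 UMIs. In a finer clustering, a group of 367 microglia-like cells led by the interferon-inducible genes Cxcl9, Iigp1 and Gbp2 had 334.1 CPM. Among macrophage-like cells, cluster 3, led by Ly6i, Tgm2 and Arg1, had 358.5 CPM (334.1 to 384.2; 283 cells) in the depletion library, 615.7 CPM (587.6 to 644.7; 257 cells) in the anti-CTLA-4 library and 537.7 CPM (507.7 to 569.0; 246 cells) in the IgG library. Cluster 2, led by Ecm1 and Thbs1, was mostly of the depletion library and had 329.0 CPM (311.7 to 347.1; 470 cells) there.

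Set against healthy brain, the IgG tumor library had more Cxcl16 in microglia-like cells, at 290.8 CPM in IgG tumors and 63.14 CPM in healthy brain, a ratio of 4.606 (3.968 to 5.357). This was the single Cxcl16 comparison between conditions that passed the size rule, which asked for a ratio of 2 or more with at least 50 UMIs and 10% of cells with a UMI in the higher library. By that rule 5.43% of 6445 genes were higher in IgG microglia-like cells. The classes differed in makeup, with cluster 20 holding most healthy cells and clusters 1, 6 and 9 most tumor cells. Set against cells outside the class, the leading genes of clusters 1, 6 and 9 held 7, 4 and 4 microglia markers. Set against all other cells, cluster 20 among them, none of these 3 held a microglia marker among its leading genes. All 12 microglia markers were detected in both libraries, and their summed level was 14920 CPM in IgG tumors and 37160 CPM in healthy brain, with a range of 11920 to 19610 CPM over the 3 tumor libraries. The 12 monocyte-derived macrophage markers summed to 1618 CPM in IgG tumors, with 1 at 0, and to 283.3 CPM in healthy brain, with 3 at 0. Their part in the result was not tested.

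Other chemokine genes were higher too. At a ratio of 1.5 and at least 20 UMIs, 11 of 14 myeloid chemokine genes, Cxcl16 included, were higher in IgG microglia-like cells and 2 were lower, where 10.1% of all 10089 genes were higher and 31.6% lower. The median log2 ratio was 2.81 for the list and -0.248 for all genes. Ccl5, an attractant for T cells, stood at 1059 CPM in IgG tumors and 7.313 CPM in healthy brain. Ccl12, a monocyte attractant, stood at 1762 CPM in IgG tumors and 150.4 CPM in healthy brain. Cxcl9 and Cxcl13 stood at 807.1 and 363.4 CPM in IgG tumors and had no UMI in healthy microglia-like cells. Ccl9 was lower, at 51.83 CPM in IgG tumors and 175.0 CPM in healthy brain. The release genes went separate ways, with Rhbdf2 at 25.4 CPM in IgG tumors and 8.288 CPM in healthy brain, and both proteases lower, Adam10 at 184.0 and 290.1 CPM and Adam17 at 118.2 and 183.1 CPM in the same order. Of the 9 inducer genes, 3 were higher and 3 lower. Tnf was at 50.8 CPM in IgG tumors and 3.413 CPM in healthy brain, Irf1 at 154.5 and 33.15 CPM, and the receptor gene Ifngr1 at 474.8 and 965.3 CPM.

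Between the tumor libraries, macrophage-like cells had less Cxcl16 after depletion. The ratio was 0.5543 (0.5205 to 0.5904) for depletion over anti-CTLA-4 and 0.6379 (0.5945 to 0.6847) for depletion over IgG, and anti-CTLA-4 over IgG gave 1.151 (1.07 to 1.238). None reached a ratio of 2. By the size rule 5.64% of 6737 genes were lower after depletion in the first comparison. Dendritic cell-like cells gave 0.7346 (0.6309 to 0.8569), 1.144 (0.9543 to 1.376) and 1.557 (1.273 to 1.908) in the same 3 comparisons, and microglia-like cells 1.009 (0.8867 to 1.15), 0.881 (0.7914 to 0.9813) and 0.8733 (0.7591 to 1.003). The macrophage intervals thus lay below 1 for both depletion comparisons. Dendritic cell-like cells lay below 1 for depletion over anti-CTLA-4 and microglia-like cells for depletion over IgG. The other depletion interval of each of these classes held 1. The 3 comparisons share libraries and are not independent.

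**Figure D2:**
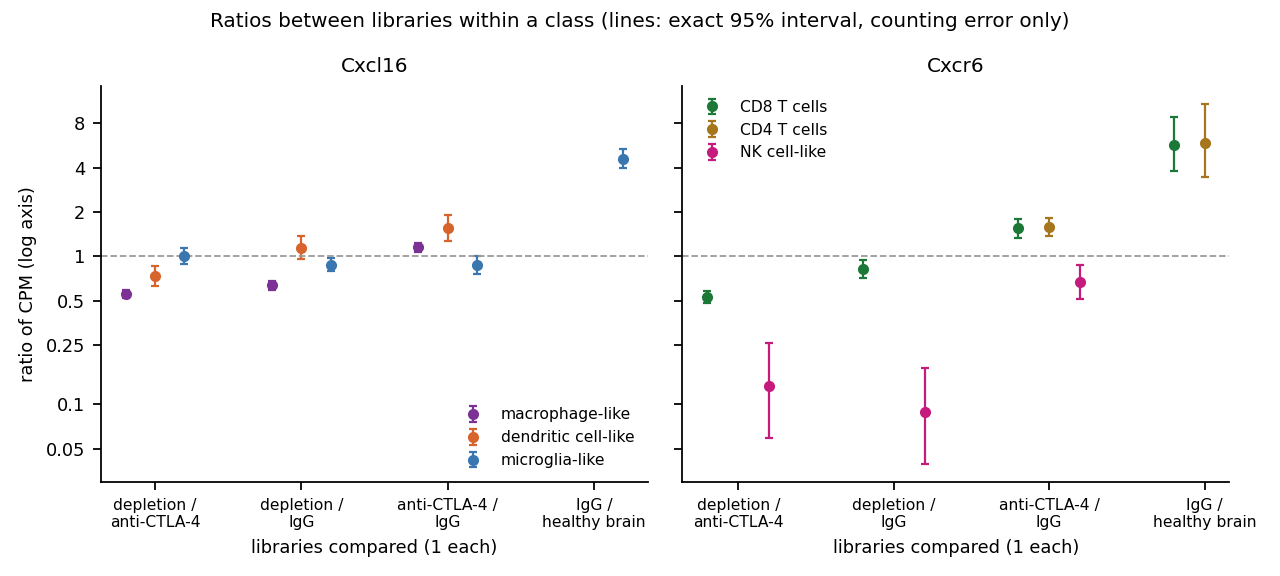
CPM ratios between libraries (log axis) for Cxcl16 in myeloid classes and Cxcr6 in lymphoid classes, with exact 95% intervals for counting error. The IgG over healthy brain ratio of Cxcl16 in microglia-like cells is 4.606, and the depletion over IgG ratio of Cxcr6 in NK cell-like cells is 0.08847.

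Markers of another cell type moved with the macrophage difference. The 11 neutrophil markers summed to 4373 CPM in macrophage-like cells of the depletion library with none at 0, against 430.0 CPM in the anti-CTLA-4 library and 918.8 CPM in the IgG library with 3 at 0 in each. Within cluster 3 the sums were 580.3, 362.7 and 640.6 CPM in that order, and Cxcl16 there, given above, was again lowest in the depletion library. Most of the inducer list was lower after depletion. Of 9 genes, 5 were lower by 1.5-fold and 1 higher in macrophage-like cells of the depletion library against anti-CTLA-4, where 17% of all 9563 genes were lower and 14.5% higher. Irf1 stood at 131.5 CPM in the depletion library and 458.0 CPM in the anti-CTLA-4 library, Nfkb1 at 94.41 and 191.5 CPM, and Ifngr1, the 1 higher gene, at 474.3 and 270.6 CPM. The median log2 ratio of the 9 was -0.58, and that of all genes -0.0147.

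Of 18 myeloid chemokine genes, Cxcl16 included, 7 were lower and 5 higher in the same comparison. Cxcl9, the interferon-γ-induced ligand of CXCR3, stood at 208.0 CPM in the depletion library and 1899 CPM in the anti-CTLA-4 library. Its companion Cxcl10 stood at 546.5 and 1767 CPM, and Ccl5 at 744.3 and 4212 CPM. Cxcl2, a neutrophil attractant, was the other way round at 73.5 and 1.013 CPM, and Cxcl14 likewise at 71.12 and 19.93 CPM. In neutrophil-like cells of the depletion library Cxcl2 stood at 1544 CPM. The part of neutrophil transcripts in its macrophage-like value was not tested. Of the release genes, Adam17 was at 60.67 CPM in the depletion library and 107.7 CPM in the anti-CTLA-4 library and Rhbdf2 at 25.82 and 52.02 CPM, while Adam10 was at 136.7 and 133.8 CPM. In the interleukin-15 list, a cytokine presented by myeloid cells to T and NK cells, 4 of 7 genes were lower and none higher, Il15 at 13.78 and 29.72 CPM and its presenting receptor Il15ra at 16.63 and 39.86 CPM. The scavenger receptor list had 2 of 9 lower, Cxcl16 itself and Olr1 (12.36 and 19.25 CPM), and none higher.

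Cxcr6 was a transcript of T cells. In T cell-like cells it stood at 322.8 CPM (307.6 to 338.5; 1197 cells) in the depletion library, 538.7 CPM (514.1 to 564.1; 536 cells) in the anti-CTLA-4 library, 305.7 CPM (284.6 to 327.9; 413 cells) in the IgG library and 75.83 CPM (58.77 to 96.31; 141 cells) in healthy brain. The anti-CTLA-4 library was highest, healthy brain lowest, and the intervals of the depletion and IgG libraries overlapped. NK cell-like cells had 9.688 CPM (4.43 to 18.39; 280 cells) in the depletion library, 73.46 CPM (61.76 to 86.74; 360 cells) in the anti-CTLA-4 library and 109.5 CPM (89.0 to 133.3; 162 cells) in the IgG library, with 4 healthy cells that held no UMI. T cell-like cells gave 95.56%, 90.35%, 84.52% and 91.78% of all Cxcr6 UMIs in the depletion, anti-CTLA-4, IgG and healthy libraries, shares that again depend on the sort. B cell-like cells held no UMI in the depletion library and healthy brain, 0.955 CPM in the anti-CTLA-4 library and 32.28 CPM in the IgG library, where 3 of 71 cells held 13 UMIs. Microglia-like cells stayed at or below 2.366 CPM in every library, and dendritic cell-like cells held 1 UMI in 270 cells.

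A Cxcr6 UMI was seen in 48.71% of T cell-like cells in the depletion library, 56.53% in the anti-CTLA-4 library, 40.44% in the IgG library and 15.6% in healthy brain, at median depths of 3949, 5468.5, 5212 and 6064 UMIs. Thinned to 1000 UMIs, the shares were 23.29%, 31.16%, 17.47% and 4.965%, which ranked the libraries in the same way. In microglia-like cells the share was at most 1.422%, below the T cell-like share in every library. T cell-like cells with 5 or more Cxcr6 UMIs were 9.524%, 29.85%, 16.71% and 4.255% of the class in the depletion, anti-CTLA-4, IgG and healthy libraries.

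The NK cell-like class had less Cxcr6 than the T cell-like class, by -2.77 on the log2 scale (SE 0.29, interval -3.38 to -2.15, edgeR adjusted p 1.454e-06, lower in 3 of 3 tumor libraries). In that comparison 11.6% of 8899 genes were called higher and 13.9% lower in NK cell-like cells. CD8 and CD4 T cells, split by their Cd8a, Cd8b1 and Cd4 UMIs, did not pass a test of Cxcr6 against each other. The difference was 0.26 on the log2 scale toward CD8 cells (SE 0.14, interval -0.04 to 0.56, edgeR adjusted p 0.4344) over the anti-CTLA-4, IgG and healthy libraries, in a comparison that called 1.89% of 6297 genes higher and 2.37% lower. The interval left room for up to 0.56 toward CD8 cells. CD8 cells had 307.3 CPM (289.8 to 325.5; 780 cells) in the depletion library, 579.2 CPM (538.0 to 622.8; 155 cells) in the anti-CTLA-4 library, 373.1 CPM (327.8 to 422.8; 85 cells) in the IgG library and 65.72 CPM (43.31 to 95.62; 57 cells) in healthy brain. CD4 cells had 554.0 CPM (508.9 to 602.0; 176 cells) in the anti-CTLA-4 library, 347.9 CPM (310.4 to 388.7; 134 cells) in the IgG library and 59.41 CPM (32.48 to 99.68; 41 cells) in healthy brain, while the depletion library had 18 such cells.

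Other genes did separate CD8 from CD4 cells in that test. Of the 10 cytotoxicity and effector genes tested, 4 were called higher and 1 lower in CD8 cells, the higher ones including Gzma (4.31, SE 0.77, adjusted p 0.002806), the gene of a granule protease, and Ccl5 (2.85). Of 11 tissue residency genes, Cxcr6 included, 2 were called higher in CD8 cells, Xcl1 (4.32, SE 0.20, adjusted p 1.343e-09), a chemokine for cross-presenting dendritic cells, and the transcription factor gene Runx3 (1.88). A further 3 were called lower, Ahr (-1.56) among them. Of 11 checkpoint and activation genes 1 was called higher, Cd160 (3.43), and 4 lower, Tnfrsf4 (-3.34), Ctla4 (-2.69) and Icos (-2.30) among them. Of 7 chemokine receptor genes, 1 was called, Ccr2 (-1.33), on the CD4 side.

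Within the CD4 compartment, Cxcr6 was lower in cells with a UMI of Foxp3, the transcription factor gene of regulatory T cells. The values were 123.1 CPM (81.15 to 179.2; 37 cells) with Foxp3 and 674.1 CPM (618.0 to 734.1; 139 cells) without in the anti-CTLA-4 library, and 75.16 CPM (45.25 to 117.4; 46 cells) with and 454.9 CPM (404.3 to 510.1; 88 cells) without in the IgG library. In the depletion library, where few cells carried Cd4, 73 CD8 cells had a Foxp3 UMI and stood at 80.59 CPM (53.55 to 116.5), against 330.2 CPM (311.3 to 350.1) in the 707 CD8 cells without. In each of these 3 splits the intervals were apart. CD8 cells without a Foxp3 UMI had 589.4 CPM (547.4 to 633.8) in the anti-CTLA-4 library and 377.8 CPM (331.4 to 428.9) in the IgG library. Without Foxp3, CD4 cells thus stood above CD8 cells in both libraries, with intervals that overlapped. In healthy brain CD8 cells without Foxp3 had 65.72 CPM and CD4 cells without it 62.45 CPM. The CD8 and CD4 comparison above took cells with and without Foxp3 together, and this split was not tested.

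By cluster, the T cell-like cells spanned a wide range. Cells of a type 17 lymphoid-like cluster, number 19, led by Cd163l1 and Actn2 with Il1r1, were at the top, with 946.8 CPM (849.4 to 1052; 95 cells) in the depletion library, 1396 CPM (1228 to 1581; 31 cells) in the anti-CTLA-4 library and 1831 CPM (1435 to 2303; 8 cells) in the IgG library. A Cxcr6 UMI was seen in 89.55% of the 134 cells. In cluster 5, CD8-like and led by Cd8a and Gzmk, the values were 453.3 CPM (418.9 to 489.9; 308 cells), 711.7 CPM (660.7 to 765.5; 128 cells) and 473.2 CPM (413.5 to 539.1; 57 cells) in the depletion, anti-CTLA-4 and IgG libraries, and 417.7 CPM (258.6 to 638.6) in 8 healthy cells. Cluster 10, led by Cd4 and Cd40lg but in the depletion library mostly of cells with CD8 transcripts, had 339.6 CPM (312.9 to 368.1; 392 cells), 791.1 CPM (731.9 to 853.9; 137 cells) and 521.1 CPM (464.6 to 582.5; 88 cells) in the same order.

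Lower values were found in the remaining T cell-like clusters. Cluster 7, led by the Ly49 receptor genes Klra1 and Klra6, had 116.8 CPM (91.05 to 147.6) in the depletion library, 257.5 CPM (211.5 to 310.7) in the anti-CTLA-4 library and 221.5 CPM (181.0 to 268.4) in the IgG library. The regulatory T cell-like cluster 8 had 50.33, 78.37 and 63.81 CPM in those libraries. The naive T cell-like cluster 14, led by Dapl1 and Igfbp4, had 40.68, 56.93 and 99.18 CPM and, in healthy brain, 18.1 CPM (9.639 to 30.96). In clusters 5, 7, 8 and 10 the anti-CTLA-4 library was the highest of the tumor libraries, while in clusters 14 and 19 the IgG library was. The anti-CTLA-4 and IgG intervals overlapped in clusters 7, 8, 14 and 19 and were apart in clusters 5 and 10.

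**Figure D3:**
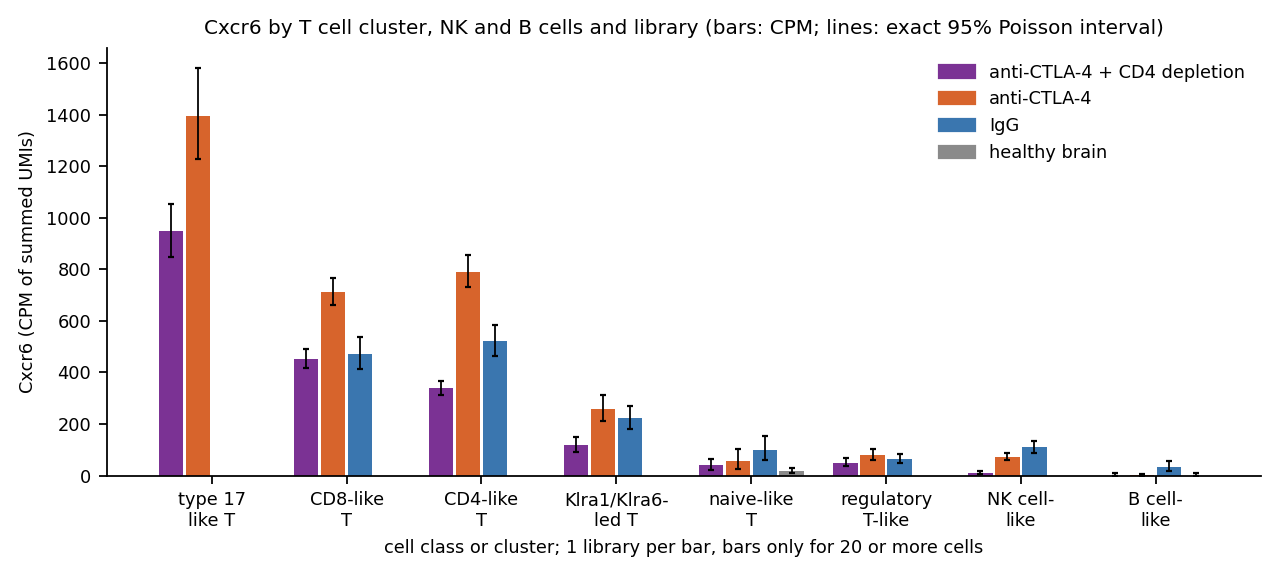
Cxcr6 in 6 T cell-like clusters and in NK and B cell-like cells, as CPM (bars) with the exact Poisson 95% interval (black lines), 1 library a bar and only for 20 or more cells. The type 17 lymphoid-like cluster is highest, at 946.8 CPM in the depletion library and 1396 CPM in the anti-CTLA-4 library, and NK cell-like cells lie at 9.688, 73.46 and 109.5 CPM in the depletion, anti-CTLA-4 and IgG libraries.

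Between conditions, Cxcr6 in T cell-like cells had a ratio of 4.031 (3.138 to 5.254) for IgG tumors over healthy brain, which passed the size rule, as 11.4% of 5538 genes did in that direction. Most healthy T cell-like cells, 116 of 141, were in the naive cluster 14, which held 30 of 413 in IgG tumors, so the classes differed in makeup. Within cluster 14 Cxcr6 stood at 99.18 CPM (59.71 to 154.9) in IgG tumors and 18.1 CPM (9.639 to 30.96) in healthy brain, intervals that were apart. In cluster 5 it stood at 473.2 CPM (413.5 to 539.1) in IgG tumors and 417.7 CPM (258.6 to 638.6) in the 8 healthy cells, intervals that overlapped. Anti-CTLA-4 over IgG gave 1.762 (1.619 to 1.919) over all T cell-like cells, 1.553 (1.342 to 1.802) in CD8 cells and 1.592 (1.384 to 1.835) in CD4 cells, all short of 2. By the size rule 0.126% of 5551 genes were higher in T cell-like cells of the anti-CTLA-4 library. Depletion over anti-CTLA-4 gave 0.5993 (0.5605 to 0.6407) over all T cell-like cells and 0.5305 (0.4832 to 0.5827) in CD8 cells, where 1.33% of 5131 genes were lower by the size rule in T cell-like cells. Depletion over IgG gave 1.056 (0.9697 to 1.151) over all T cell-like cells and 0.8236 (0.717 to 0.9492) in CD8 cells.

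Residency and effector genes were read beside Cxcr6 at a ratio of 1.5. In T cell-like cells of the anti-CTLA-4 library against IgG, 3 of 13 residency genes were higher, Cxcr6, Itga1 (22.37 CPM in the anti-CTLA-4 library and 8.219 CPM in the IgG library) and Itgae (80.53 and 47.36 CPM), and none lower, where 5.54% of all 9382 genes were higher and 5.79% lower. Itga1 and Itgae encode integrin chains that hold T cells to collagen and E-cadherin. Of 13 cytotoxicity and effector genes 7 were higher and 1 lower, Ccl3 at 290.2 and 43.44 CPM and Gzma at 723.6 and 135.8 CPM in the anti-CTLA-4 and IgG libraries. Of 12 chemokine receptor genes 2 were higher, Cxcr6 among them, and 2 lower, Ccr6 (7.457 and 15.26 CPM) and Ccr4 (11.93 and 19.96 CPM). None of the 10 recirculation genes passed that ratio in either direction.

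In the depletion library against anti-CTLA-4, 4 of 13 residency genes, Cxcr6 among them, were lower in T cell-like cells and none higher. Over all 9783 genes 12.6% were lower and 5.09% higher. Besides Cxcr6, the lower residency genes were Itga1 (7.966 CPM in the depletion library and 22.37 CPM in the anti-CTLA-4 library), Prdm1 (22.38 and 40.27 CPM) and Ahr (26.55 and 44.44 CPM). Of 12 checkpoint and activation genes 6 were lower, Lag3 at 52.73 and 222.8 CPM and Havcr2, the gene of TIM-3, at 13.66 and 34.0 CPM. Of 13 cytotoxicity and effector genes 7 were lower and 1 higher, Ifng at 34.33 and 120.2 CPM. Of 10 recirculation genes 2 were higher and 1 lower. Klf2, a transcription factor gene of quiescent and circulating T cells, stood at 341.8 CPM in the depletion library and 165.8 CPM in the anti-CTLA-4 library, and its target S1pr1, the exit receptor from tissue to lymph, at 132.0 and 74.57 CPM. The CD4 cells are all but absent from this T cell-like class after depletion, so a change of cell makeup and a change within cells cannot be told apart here.

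In IgG tumors against healthy brain the T cell-like class had 12 of 13 residency genes higher, Cxcr6 among them, and 1 lower. It had 11 of 11 checkpoint and activation genes higher and 7 of 10 recirculation genes lower. Over all 8395 genes 27.8% were higher and 9.14% lower. Xcl1 stood at 256.8 CPM in IgG tumors and 10.19 CPM in healthy brain, and Bhlhe40, a transcription factor gene of resident T cells, at 81.8 and 5.659 CPM. On the other side stood Klf2, at 184.7 CPM in IgG tumors and 1157 CPM in healthy brain, Lef1 at 87.28 and 429.0 CPM and the lymph node homing receptor gene Ccr7 at 57.14 and 306.7 CPM.

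Splitting the T cell-like cells of each library by a Cxcr6 UMI showed what went with it cell by cell. The split gave 583 cells with and 614 without in the depletion library, 303 and 233 in the anti-CTLA-4 library, 167 and 246 in the IgG library and 22 and 119 in healthy brain, and cells with a UMI were deeper, at medians of 4281 and 3618, 5953 and 4863, 6366 and 4266.5, and 6993.5 and 6021 UMIs in the same order. A gene was counted when its CPM differed by 1.5-fold in the same direction in every library. Over the 4 libraries 5 of 10 recirculation genes were lower in cells with a Cxcr6 UMI, Ccr7, Klf2, Klf3 and Lef1 among them, and 1 was higher, Cx3cr1, where 0.639% of 4226 genes were lower and 0.308% higher. The lymph node homing receptor gene Ccr7 stood at 28.53 CPM in cells with and 55.09 CPM in cells without a Cxcr6 UMI in the depletion library, at 15.34 and 87.6 CPM in the anti-CTLA-4 library, at 27.18 and 87.58 CPM in the IgG library and at 133.8 and 344.1 CPM in healthy brain. It was lower with Cxcr6 in all 4. Of 5 residency genes deep enough in all 4 libraries, none passed.

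In the 3 tumor libraries more genes were deep enough, and 1.39% of 7622 genes were higher and 1.15% lower in every one of them in cells with a Cxcr6 UMI. Of 12 residency genes 2 were higher, Itga1 and Xcl1. Itga1 stood at 13.55 CPM with and 1.62 CPM without in the depletion library, at 33.08 and 4.735 CPM in the anti-CTLA-4 library and at 13.98 and 2.367 CPM in the IgG library. Xcl1 stood at 387.3 and 108.2 CPM, 352.9 and 145.2 CPM, and 365.8 and 146.0 CPM in the same libraries. Itgae, the other integrin gene of the list, went different ways, at 58.85 CPM with and 125.6 CPM without in the depletion library, 91.1 and 63.13 CPM in the anti-CTLA-4 library and 33.4 and 61.54 CPM in the IgG library. The other residency genes did not differ by 1.5-fold in 1 direction in all 3 libraries.

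**Figure D4:**
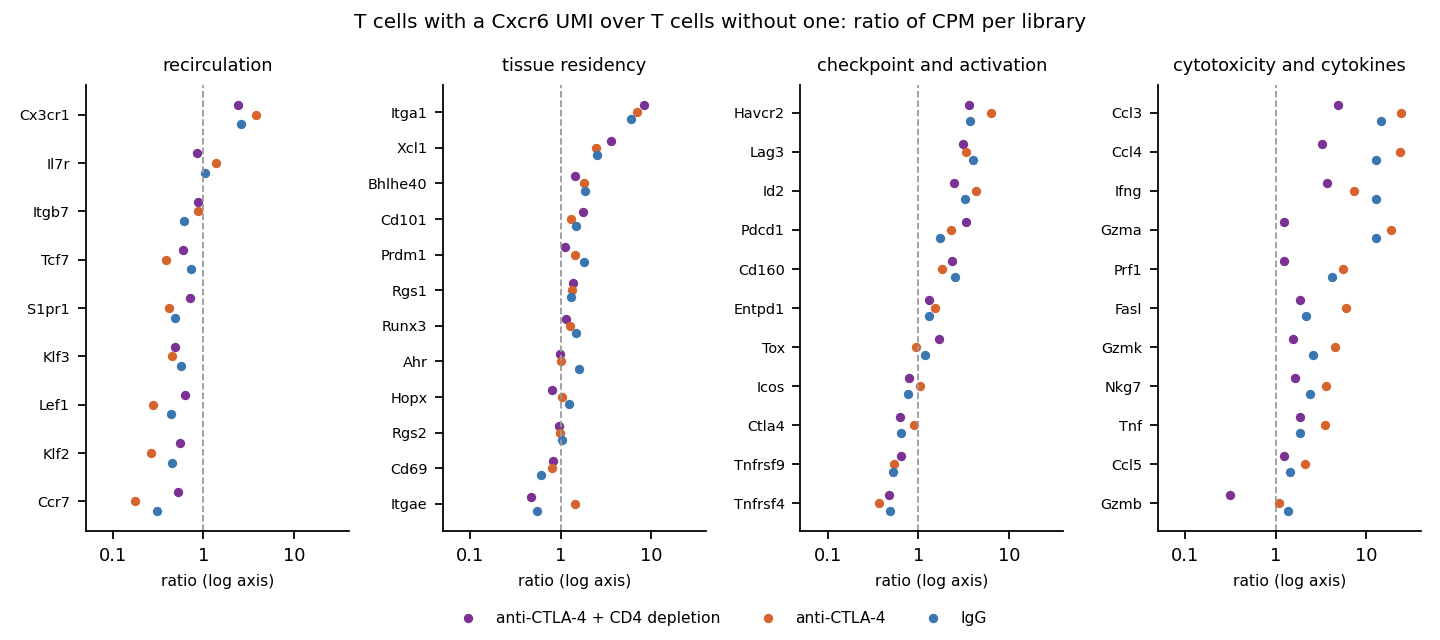
Ratio of CPM in T cell-like cells with a Cxcr6 UMI over those without (log axis), for genes of 4 lists in the 3 tumor libraries, each point 1 library. Ccr7 lies below 1 in all 3, at 0.518 in the depletion library, 0.175 in the anti-CTLA-4 library and 0.310 in the IgG library.

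Of 11 checkpoint and activation genes 5 were higher with Cxcr6 in all 3 tumor libraries, Havcr2, Lag3, Id2, Pdcd1 and Cd160, and 2 lower, Tnfrsf4 and Tnfrsf9. Lag3 stood at 77.39 CPM with and 24.71 CPM without in the depletion library, 303.5 and 89.96 CPM in the anti-CTLA-4 library and 257.1 and 63.91 CPM in the IgG library. Pdcd1, the gene of PD-1, stood at 232.5 and 68.87 CPM, 235.4 and 102.6 CPM, and 215.9 and 124.7 CPM in that order. Tnfrsf4, the gene of the costimulatory receptor OX40, was the other way round at 105.2 and 224 CPM, 273.3 and 747.3 CPM, and 354.9 and 719.6 CPM. Of 11 cytotoxicity and effector genes 7 were higher. Ccl4 stood at 268.2 and 82.64 CPM, 857.3 and 36.3 CPM, and 522.7 and 41.03 CPM, and Ifng at 52.07 and 14.18 CPM, 178.4 and 24.46 CPM, and 139.8 and 11.05 CPM, in each pair with Cxcr6 first. Gzmb, the gene of granzyme B, did not follow, at 220.0 and 695.1 CPM in the depletion library, 316.9 and 289.6 CPM in the anti-CTLA-4 library and 192.6 and 142.0 CPM in the IgG library. Of the chemokine receptors, Cx3cr1 was at 42.44 and 17.82 CPM, 74.32 and 19.73 CPM, and 53.59 and 20.51 CPM, while Cxcr3, the receptor of CXCL9 and CXCL10, was at 132.7 and 121.9 CPM, 118.4 and 111.3 CPM, and 85.43 and 120.7 CPM.

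Since T cell subsets differ in Cxcr6, the split was repeated in cells with CD8 transcripts alone. There 7 of 9 cytotoxicity genes, 3 of 9 checkpoint and activation genes and 2 of 7 residency genes were higher and 5 of 10 recirculation genes lower in all 3 tumor libraries, where 1.71% of 3563 genes were higher and 0.533% lower. The cells of a library are no replicates, so these counts describe the libraries and carry no test. Cells with a Cxcr6 UMI were deeper, and over all T cell-like cells fewer genes differed when every cell was thinned to 1000 UMIs. Then 0 of 5 cytotoxicity genes, 0 of 8 residency genes and 2 of 8 checkpoint and activation genes were higher and 4 of 8 recirculation genes lower in the 3 tumor libraries, where 0.432% of 2549 genes were higher and 0.902% lower. Thinning also moved cells that lost their Cxcr6 UMI to the other side of the split. It left 275 cells with and 906 without in the depletion library, 167 and 369 in the anti-CTLA-4 library and 69 and 326 in the IgG library. The parts of depth and of this shift were not tested.

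NK cell-like cells gave the single Cxcr6 difference between tumor libraries that passed the size rule. The depletion library had 9 Cxcr6 UMIs in 8 of 280 cells (2.857%), the anti-CTLA-4 library had a UMI in 24 of 360 cells (6.667%) and the IgG library in 19 of 162 cells (11.73%), at median depths of 3005.5, 4900.5 and 4839.5 UMIs. Depletion over IgG was 0.08847 (0.0393 to 0.1748), which passed the size rule, as 1.94% of 4134 genes did in that direction. Anti-CTLA-4 over IgG was 0.6708 (0.5147 to 0.8771). The signal lay in few cells. In the anti-CTLA-4 and IgG libraries 14 and 11 cells held 5 or more Cxcr6 UMIs, and the median cell with any UMI held 6 in each, against 1 in the depletion library. In the depletion library the share of 2.857% (1.241% to 5.552%) compared with 0.3802% (0.04608% to 1.367%) of microglia-like cells at a median of 5419 UMIs, with intervals that overlapped. Scaled for depth, NK cell-like cells had 9.688 CPM (4.43 to 18.39) and microglia-like cells 0.5882 CPM (0.07124 to 2.125). Those intervals were apart, on 9 and 2 UMIs. In finer clusters, 240 NK cell-like cells led by genes that include the cytotoxic Prf1 and Gzma held no Cxcr6 UMI. A group of 432 led by Car2, Klra4, Serpinb6b and Eomes had 107.5 CPM, and 139 led by Klra4 and Gimap5 had 8.223 CPM. T cell markers in NK cell-like cells summed to 128.1 CPM in the depletion library, 133.7 CPM in the anti-CTLA-4 library and 186.9 CPM in the IgG library, with 1, 2 and 1 of the 6 at 0, and their part in the difference was not tested.

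The residency list went with it. Of 11 residency genes, Cxcr6 among them, 6 were lower by 1.5-fold and none higher in NK cell-like cells of the depletion library against IgG, where 14.8% of all 6862 genes were lower and 7.55% higher. The median log2 ratio was -0.701 for the list and -0.0648 for all genes. Xcl1 stood at 694.3 CPM in the depletion library and 1532 CPM in the IgG library, Itga1, whose product CD49a marks resident NK cells in the mouse liver, at 9.688 and 22.12 CPM, and Ahr at 18.3 and 48.67 CPM. Of 10 recirculation genes 1 was higher, Lef1 at 87.19 and 45.35 CPM, and 1 lower, S1pr5 at 21.53 and 38.71 CPM.

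The NK cell-like cells with a Cxcr6 UMI were then set beside those without, a split chosen after these values were seen and given without a test. The chemokine gene Xcl1 stood at 2984 CPM in the 24 cells with and 507.4 CPM in the 336 cells without in the anti-CTLA-4 library, and at 4523 CPM in the 19 with and 916.3 CPM in the 143 without in the IgG library. Il7r, the interleukin-7 receptor gene typical of innate lymphoid cells, stood at 178.1 and 15.77 CPM in the anti-CTLA-4 library and 200.9 and 26.68 CPM in the IgG library. Itga1 stood at 77.94 and 17.52 CPM, and 58.32 and 14.67 CPM, in the same pairs. In the opposite direction, Eomes, a transcription factor gene of circulating NK cells, stood at 66.8 and 279.1 CPM and at 64.8 and 313.4 CPM, and the Ly49 receptor gene Klra8 at 72.37 and 649.3 CPM and at 38.88 and 737.6 CPM. Klf2 stood at 83.5 and 433.3 CPM and at 97.2 and 413.5 CPM. S1pr5, the exit receptor gene of NK cells, had no UMI in cells with Cxcr6 in either library. All these differences had the same direction in both libraries. In the depletion library, with 8 cells with and 272 without, Xcl1 (1156 and 671.7 CPM), Il7r (369.9 and 48.55 CPM), Eomes (138.7 and 237.1 CPM), Klra8 (369.9 and 544.2 CPM) and Klf2 (184.9 and 444.8 CPM) had that direction too. Itga1 did not, with no UMI in cells with and 10.16 CPM in cells without Cxcr6, and S1pr5 had 1 UMI in cells with.

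**Figure D5:**
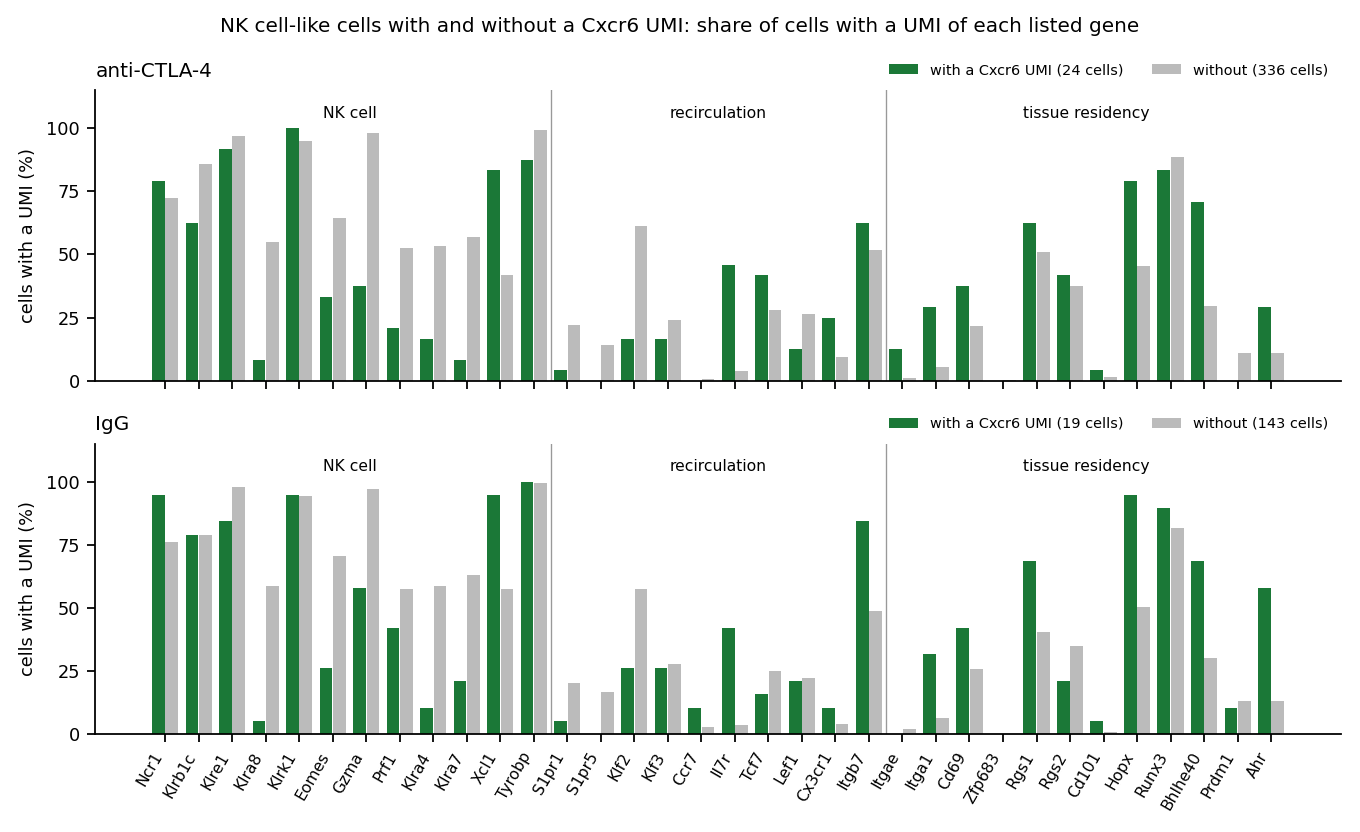
Share of NK cell-like cells with a UMI of each gene shown of the NK cell, recirculation and tissue residency lists, in cells with and without a Cxcr6 UMI, in the anti-CTLA-4 library (top) and the IgG library (bottom). Gzma was seen in 37.5% of cells with and 97.92% without in the anti-CTLA-4 library, and in 57.89% and 97.2% in the IgG library.

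The 12 NK cell genes summed to 10450 CPM with and 23870 CPM without a Cxcr6 UMI in the anti-CTLA-4 library and to 13170 and 22750 CPM in the IgG library, and members of the list differed. Ncr1, the gene of NKp46, was seen in 79.17% of cells with and 72.32% without in the anti-CTLA-4 library and in 94.74% and 76.22% in the IgG library, and Klrk1, the gene of NKG2D, in 100% and 94.94% and in 94.74% and 94.41%. The T cell receptor complex gene Cd3e was seen in none of the 24 cells with Cxcr6 in the anti-CTLA-4 library and in 1 of 19 in the IgG library, and Cd3g in 4 of 24 and 5 of 19. The T cell list summed to 206.0 CPM with and 126.1 CPM without in the anti-CTLA-4 library and to 401.8 and 142.7 CPM in the IgG library. Cells with a Cxcr6 UMI were deeper, at medians of 6648.5 and 4777.5 UMIs in the anti-CTLA-4 library and 7156 and 4681 UMIs in the IgG library. The part of T cell transcripts and of depth in these differences was not tested.

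Ligand and receptor rarely stood in the same cell. UMIs of both were seen in 23 cells of the depletion library (0.6206%), 21 of the anti-CTLA-4 library (1.191%), 9 of the IgG library (0.6276%) and none of healthy brain, and 18, 12 and 5 of these were T cell-like. The genes most like each member were sought by Pearson correlation of log2(CPM + 5) over clusters and libraries, as a description. For Cxcl16, over 31 cluster-library units of 13 myeloid clusters, they included Spint1 (0.885), Dab2 (0.878), Slamf9 (0.845), Sdc4 (0.843), Gatm (0.841) and Snhg12 (0.841). For Cxcr6, over 27 units of 9 lymphoid clusters, they included Pdcd1 (0.864), Cd226 (0.863), F2r (0.854), Stk39 (0.832) and Zap70 (0.831). Units of the same library share its preparation and depth, and clusters were drawn from these genes, so no p is given.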

How the data were processed

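Raw UMI counts per gene and cell were used as the authors deposited them, from 10x 3′ libraries processed with Cell Ranger 3.1.0, per the file headers, and aligned to mm10, per the submitters' processing notes. The 4 libraries held 21471565, 13428840, 9952379 and 7950206 UMIs over all barcodes of depletion, anti-CTLA-4, IgG and healthy brain. Cells with under 200 genes or over 10% mitochondrial UMIs were removed. Doublets were called with Scrublet in scanpy 1.11.5, and where it marked under 0.5% of cells, in the 2 libraries with most barcodes its cells scoring in about the top 5% were removed instead (169 and 90 cells). Clustering used 2000 variable genes without Cxcl16 and Cxcr6, 30 principal components, 15 neighbours and Leiden resolution 1, and classes were named from marker lists. Before clustering 9 barcodes were shared between libraries.

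CPM intervals are exact Poisson, ratio intervals exact conditional binomial and share intervals Clopper-Pearson, at 95%. Class comparisons used edgeR 4.0.16 (quasi-likelihood, TMM, library as block, Benjamini-Hochberg over all genes tested, threshold 0.05) on counts summed per class and library with at least 20 cells, tested on simulated data. Gene lists were read at a ratio of 1.5 and at least 20 UMIs. Of each list the 2 to 4 members with the largest ratios are named, apart from a few that are not reported here. Itgae, Gzmb, Cxcr3, Tnf, Tnfrsf1b, Il7r and the other genes of the split of NK cell-like cells, and the release and interleukin-15 genes beyond that number, were chosen after their values were seen. The pair, the lists and the marker genes were chosen with earlier results of these data known. Alternatives covered cell filters, doublets, depth, scaling, clustering, tool, filter and block. Promoter sequence came from RefSeq tables, in which 1 of the 2 genes was matched.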

Additional observations from a re-analysis of the deposited data

Results flagged for a closer look

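Cxcr6 moved in opposite directions in T and NK cell-like cells between the anti-CTLA-4 and IgG libraries, with a CPM ratio of 1.762 (1.619 to 1.919) in T cell-like cells and 0.6708 (0.5147 to 0.8771) in NK cell-like cells. The difference between the 2 ratios was not tested, since each side is 1 library.

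Cells of a cluster led by cell-cycle genes were put in no class, and their Cxcr6 is outside the comparisons above. Over the 3 tumor libraries these 59 cells held 121.7 CPM (99.91 to 146.8). By library this was 184.4 CPM in the depletion library, 133.7 CPM in the anti-CTLA-4 library, 61.33 CPM in the IgG library and 14.65 CPM in healthy brain.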

How the results depend on the processing

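The differences of Cxcl16 between macrophage-like and microglia-like cells and of Cxcr6 between NK and T cell-like cells kept their direction and call under every alternative run, with ranges without 1 library of 0.8633 to 1.329 and of -3.462 to -2.322 (log2). That of Cxcr6 between CD8 and CD4 cells passed under none (0.222 to 0.2678 without 1 library). Cxcl16 in dendritic cell-like against macrophage-like cells ranged from -0.4702 without the depletion library, past the threshold, to 0.00291 without the IgG library, where its sign turned. No paired analysis was possible because each condition is 1 library, numbered 1 in each, and the labels give no replicate number that could pair samples. The library block joined classes of the same library.

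Of 192 alternative values of the CPM levels, 148 stayed within the counting interval and 44 left it. Among the latter were 23 of 24 without ribosomal and mitochondrial genes in the total, 9 of 24 thinned and 7 of 24 by per-cell CPM. Of 207 alternative values of the condition ratios, 189 stayed within the counting interval, 16 left it and 2 turned sign. Cxcl16 in microglia-like cells, depletion over IgG, turned to 1.027 with cells thinned to 1000 UMIs and 1.007 with the mean of per-cell CPM. With median-of-ratios scaling, Cxcl16 in microglia-like cells, IgG over healthy brain, was 5.514 and Cxcr6 in T cell-like cells, depletion over anti-CTLA-4, 0.6524. Thinned, Cxcr6 in T cell-like cells gave 0.6584 for depletion over anti-CTLA-4 and 1.582 for anti-CTLA-4 over IgG. Cxcl16 in macrophage-like cells, depletion over anti-CTLA-4, was 0.5015 without doublet removal and 0.5913 without ribosomal and mitochondrial genes, and in dendritic cell-like cells, anti-CTLA-4 over IgG, 1.261 by per-cell CPM. Counted over whole classes, without the CD8 and CD4 subsets, Cxcl16 passed the size rule at a ratio of 1.5 in 4 comparisons and Cxcr6 in 4, in place of 1 and 2. At 20 UMIs and no minimum share they passed in 5 and 4. At a fold of 2, 0 of the 5 recirculation genes were lower with Cxcr6 in all 4 libraries. Thinned to 1000 UMIs, in the 3 tumor libraries, 4 of 8 recirculation genes were lower, and 2 of 8 checkpoint and activation, 0 of 5 cytotoxicity and 0 of 8 residency genes higher. Fewer genes were deep enough there, and fewer cells held a Cxcr6 UMI. The causes were not tested.

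Genes called numbered 5042 for macrophage-like against microglia-like cells, 1966 for dendritic cell-like against macrophage-like cells, 268 for CD8 against CD4 cells and 2269 for NK against T cell-like cells. Thinned, these were 1666, 493, 52 and 822. DESeq2 gave 1070, 77 and 1168 for the last 3. Without the block 783 and 14 genes were called for dendritic cell-like and CD8 cells. CD8 against CD4 cells gave 579 without a filter, 59 without the anti-CTLA-4 library, 108 without IgG and 749 without healthy brain. Fewer UMIs and smaller classes limit the depletion library's CD4 cells and healthy macrophage-like, dendritic cell-like and NK cell-like cells, which were left out of the tests. Median-of-ratios scaling divided the ratios in microglia-like cells, IgG over healthy brain, by a factor with a log2 of -0.26, and so raised them. Its factor in neutrophil-like cells, IgG over healthy brain, had a log2 of 1.08 and touches no ratio given here.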
